A study of Homo sapiens with 8 samples.

Results

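The CLK kinases and SR splicing factors are described here in a human cell line with and without knockdown of WSB2. They are 10 genes of the 58735 listed in the deposited values, chosen by symbol as genes known for retained introns: the kinases CLK1, CLK2, CLK3 and CLK4 and the factors SRSF2, SRSF3, SRSF5, SRSF6, SRSF7 and SRSF11. U2OS is an established human osteosarcoma line. All 8 libraries came from cells transduced with a lentiviral short hairpin RNA (shRNA) and selected with puromycin, so the control cells carry a hairpin as well. The 4 groups of 2 libraries each were shControl cells (genotype WT in the labels, called control) without treatment, shWSB2 cells (WSB2 knockdown, called KD) without treatment, and both kinds of cell after 5 h of TNF-α, a cytokine that activates the transcription factor NF-κB. WSB2 is a substrate receptor of a ubiquitin ligase. The knockdown lines are selected pools made with a hairpin that the sources used here do not name, and nothing says that the 2 libraries of a group came from separate cultures, so p-values measure the spread between these libraries, which may be technical.

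SR proteins bind exons and early splicing factors and help to define which sequences are kept in an mRNA. The CLK kinases phosphorylate their serine- and arginine-rich tails in the nucleus, which moves SR proteins out of nuclear speckles to sites of splicing. Several genes of both families control their own output through splicing: their transcripts can keep an intron and stay in the nucleus, or include a poison exon that marks them for decay. CLK1 is a textbook case, since its transcripts with retained introns are a nuclear store that can be spliced later.

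In release 29 of GENCODE on GRCh38, which matched the deposited table in identifier, position and exon length for all 58735 genes, 4 introns of CLK1 are kept in at least 1 annotated retained-intron transcript, 4 of CLK4, 2 of CLK3, 4 of SRSF5 and 2 of SRSF3. None is annotated along the transcripts taken for CLK2, SRSF2, SRSF6, SRSF7 and SRSF11. Introns 3 and 4, which flank the fourth exon, are the introns that CLK1, CLK3 and CLK4 share in this list. Their splice sites are shown because they are where an intron would be kept or removed. In each donor the capitals mark the first 2 bases of the intron, after 3 exon bases, and in each acceptor the last 2 bases of the intron, before 3 exon bases.
CLK1 intron 3 donor: gggGTatga
CLK4 intron 3 donor: tcgGTatga
CLK3 intron 3 donor: tcgGTgagt
CLK1 intron 3 acceptor: cgcccacttgacgtttccAGaag
CLK4 intron 3 acceptor: ctgcccacttgccgttccAGaag
CLK3 intron 3 acceptor: tcggggggcggtgcatgcAGaga
CLK1 intron 4 donor: gatGTatag
CLK4 intron 4 donor: gatGTatag
CLK3 intron 4 donor: gatGTacag
CLK1 intron 4 acceptor: gatttatttctctcttttAGatg
CLK4 intron 4 acceptor: tttttccctcctcactctAGatg
CLK3 intron 4 acceptor: caatttcttttctctcctAGatg
The donor of intron 4 has the same 9 bases in CLK1 and CLK4 and 8 of 9 in common with CLK3. At intron 3 the donors of CLK1 and CLK4 have 7 of 9 bases in common. Intron 4 spans chr2:200859747-200860124 in CLK1 (378 bases, 26.2% GC, minus strand), chr5:178616949-178617343 in CLK4 (395 bases, 30.4% GC, minus strand) and chr15:74622217-74622493 in CLK3 (277 bases, 48.7% GC, plus strand). Intron 3 is longer in all of them, with 1022 bases in CLK1, 1121 in CLK4 and 1894 in CLK3.

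**Figure D1:**
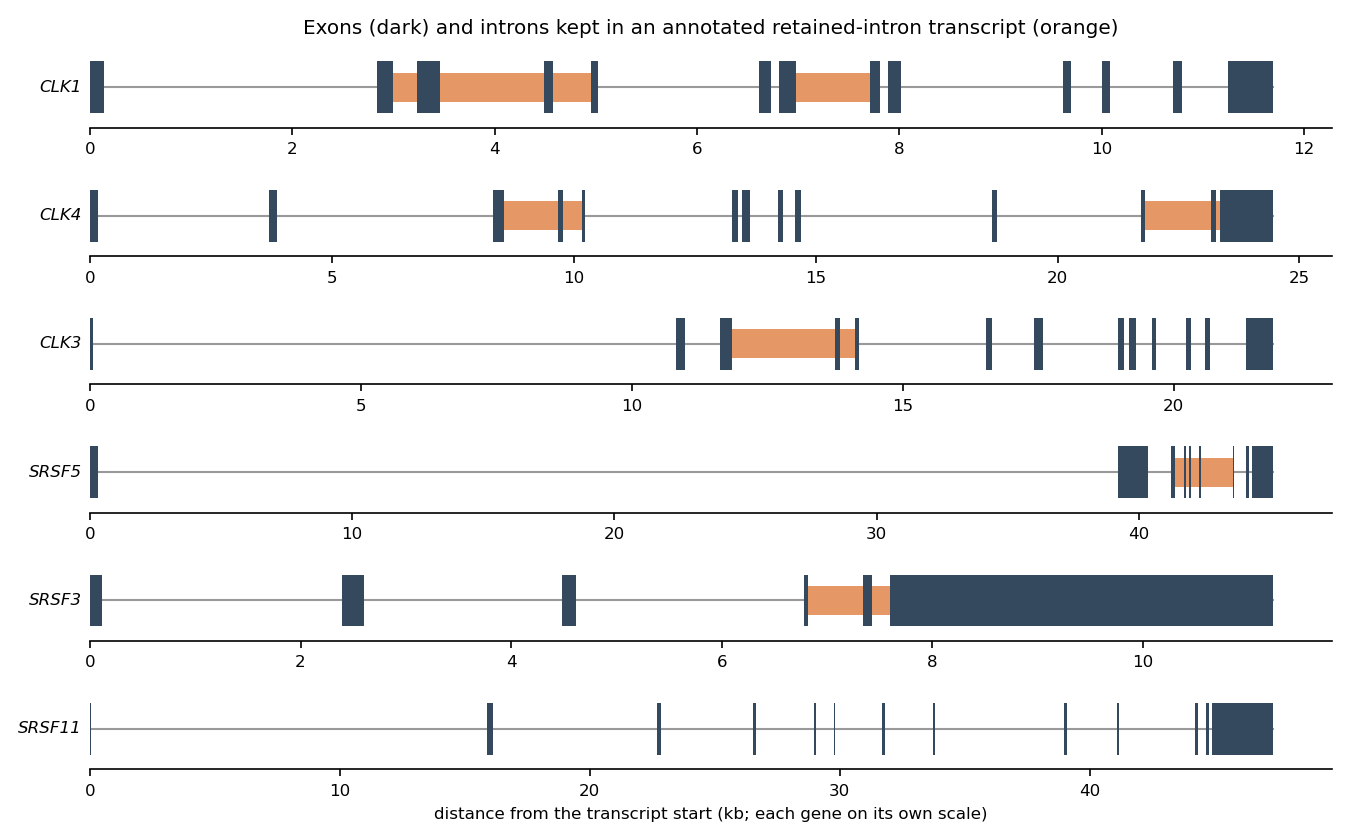
Exons and annotated retained introns along 1 transcript each of CLK1, CLK4, CLK3, SRSF5, SRSF3 and SRSF11, against the distance in kb from the transcript start. Dark blocks are exons and orange blocks are introns kept in at least 1 annotated retained-intron transcript, 4 each in CLK1, CLK4 and SRSF5, 2 each in CLK3 and SRSF3 and 0 in SRSF11.

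The annotated retained introns also enter the measurement. A gene's level was given as FPKM, fragments scaled to its exon length in kilobases and to the library size used by the authors, and the exon length counts every annotated exon, including introns that a retained-intron transcript holds as exon. Bases found only in such transcripts make up 46.9% of the exon length of CLK1, 38.3% of CLK4, 30.4% of SRSF3, 18.6% of SRSF5, 17.8% of CLK3, 7.34% of SRSF7, 3.02% of SRSF2 and 0% of CLK2, SRSF6 and SRSF11. Of 13500 tested protein-coding genes, 55.8% have such bases and 4.61% have a larger share than CLK1. A value per gene sums spliced and intron-holding transcripts, so it cannot show which of them moved. In a bulk sample, fewer cells with a transcript and less of it per cell cannot be told apart either.

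The 10 genes lie on 8 chromosomes of GRCh38. CLK1 (ENSG00000013441) lies at chr2:200853009-200864744 on the minus strand, CLK2 (ENSG00000176444) at chr1:155262868-155278491 on the minus strand, CLK3 (ENSG00000179335) at chr15:74598500-74645414 on the plus strand and CLK4 (ENSG00000113240) at chr5:178602664-178630615 on the minus strand. SRSF2 (ENSG00000161547) lies at chr17:76734115-76737374 on the minus strand, SRSF3 (ENSG00000112081) at chr6:36594353-36605600 on the plus strand and SRSF5 (ENSG00000100650) at chr14:69726900-69772005 on the plus strand. SRSF6 (ENSG00000124193) lies at chr20:43457928-43464247 on the plus strand, SRSF7 (ENSG00000115875) at chr2:38743599-38751494 on the minus strand and SRSF11 (ENSG00000116754) at chr1:70205682-70253052 on the plus strand. SRSF2 shares 1106 exon bases, 36.7% of its exon length, with MFSD11 on the opposite strand, and CLK3 shares 701 bases, 3.43%, with EDC3. Whether the counting used the strand is not given in the sources used here, so reads in these overlaps cannot be assigned. MFSD11 was at 1.56 to 2.12 FPKM in the 8 libraries, far below SRSF2. The processed copy CLK2P1 had 27 reads in all libraries together against 4845 for CLK2.

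The labels were first checked with WSB2 itself. It was at 27.72 and 27.997 FPKM in the control libraries, 8.38 and 8.52 in the KD libraries, 24.995 and 25.3 in control cells with TNF-α and 9.002 and 9.18 in KD cells with TNF-α, so all 4 KD libraries were below all 4 control libraries. The NF-κB targets NFKBIA, TNFAIP3 and CXCL8 passed the test as higher with TNF-α in both kinds of cell, and TNFAIP3, for example, was at 1.74 to 2.61 FPKM in the 4 untreated libraries and at 39.3 to 42.3 in the 4 treated ones. The libraries held 15601098 to 18677023 reads. The 2 untreated KD libraries stood apart from the other 6 in several measures. Mitochondrial genes took 4.10% and 4.42% of their reads against 1.11% to 2.03%, the read-weighted GC content of the genes' exons was 49.5% and 50.0% against 52.6% to 53.3%, and 26225 and 26397 genes had a read against 22072 to 22957. The size by which the authors divided was 1.21 times the total reads in both of them and 0.925 to 1.03 times in the others. Of 6 mesenchymal markers, 5 were tested and TWIST1 had 0 reads, and their summed level was 537 to 550 FPKM in untreated KD cells against 677 to 772 in the other groups. That sum is carried by SPARC, VIM and COL1A1, which were called lower in KD cells without TNF-α, whereas RUNX2, from a mean of 1.84 to 2.91 FPKM, was called higher (log2 fold change 0.46, adjusted p = 0.010 by limma). Of 8 markers of epithelial, blood, endothelial and liver cells, 3 passed the filter on low reads, none was above 0.482 FPKM in any library, and their sum was 0.638 to 0.671 FPKM in untreated KD cells against 0.272 to 0.704 elsewhere.

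Across the 10 genes, the levels in untreated control cells ran over more than 2 orders of magnitude. FPKM divides by the annotated exon length, 20443 bases for CLK3 against 5170 for CLK1, so the order between genes depends on that length. CLK3 had 4060 reads in the 8 libraries against 3064 for CLK1, though it ranked below it in FPKM. The means of 2 libraries were 64.3 ± 3.40 (SD) for SRSF2, 51.7 ± 6.95 for SRSF3, 41.8 ± 2.73 for SRSF7, 33.4 ± 0.0222 for SRSF6 and 17.9 ± 1.34 for SRSF5. CLK2 followed at 9.51 ± 0.226, SRSF11 at 5.46 ± 0.464, CLK1 at 2.97 ± 0.241, CLK3 at 1.61 ± 0.0117 and CLK4 at 0.343 ± 0.0923. No neighbours in this order overlapped between their 2 libraries. In untreated KD cells the order changed in its lower part. SRSF11 was above CLK2, whose libraries lay at 8.74 and 10.1 FPKM, and CLK4 was above CLK3, and CLK1 lay just below CLK2. Depth behind these values differed widely, from 26 to 247 reads per library for CLK4 and 174 to 860 for CLK1 to 5155 to 6525 for SRSF3.

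**Figure D2:**
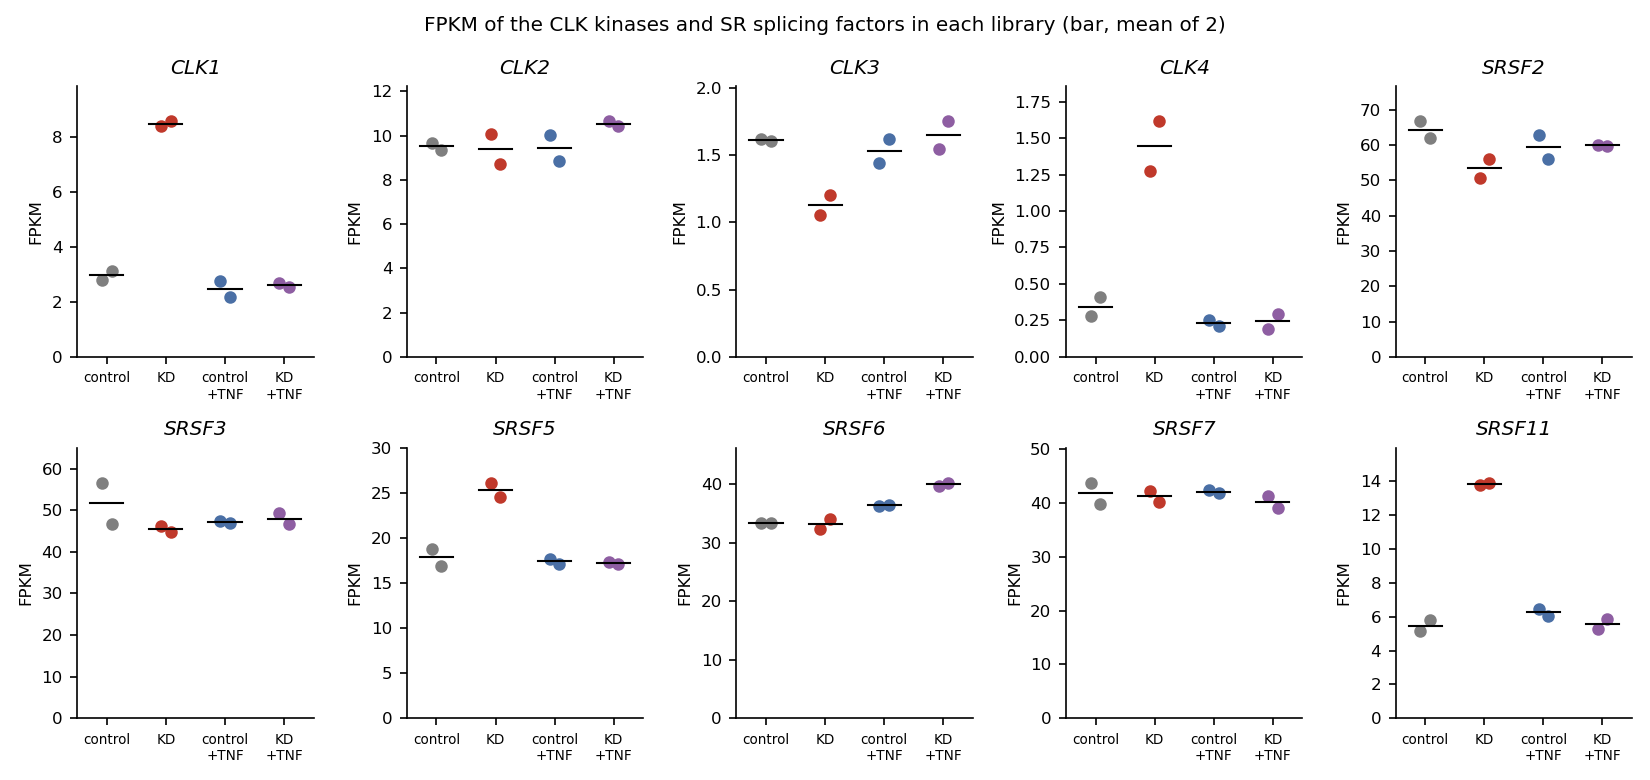
FPKM of each of the 10 genes in the 8 libraries, 1 panel a gene with its own linear axis from 0; points are libraries and bars the mean of 2. In the panels of CLK1, CLK4, SRSF5 and SRSF11 both untreated KD libraries lie above all other 6, and in the panels of CLK3, SRSF2 and SRSF3 both lie below them.

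KD against control without TNF-α compares resting cells with lowered WSB2, at a mean of 8.45 FPKM, with control cells at 27.9. The design cannot tell an effect of the knockdown from a trait of the 2 untreated KD libraries, which stood apart in other measures. Of the 10 genes, 4 passed the test as higher in KD cells (CLK1, CLK4, SRSF5 and SRSF11) and 2 as lower (CLK3 and SRSF2), at a Benjamini-Hochberg adjusted p under 0.05 in a limma fit of log2(FPKM + 1) over 16528 genes. In the same comparison 29.8% of all tested genes were called higher and 30.2% lower, so the share of members called, 4 and 2 of 10, is near that of genes at large. The share of higher calls depends on the scaling: with the libraries scaled to their total reads the 10 genes gave 6 higher and 0 lower, and with upper-quartile factors 3 higher and 5 lower, while the median log2 change of all tested genes went from 0.00 to 0.13 and -0.11 and the share of higher among all calls from 49.7% to 65.3% and 37.8%. The median of the 10 genes was -0.01.

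Among the kinases, CLK1 was at 2.80 and 3.14 FPKM in the control libraries and at 8.39 and 8.58 in the KD libraries. The other 4 libraries, with TNF-α, lay at 2.18 to 2.75, so the untreated KD cells stood alone and did not overlap with any other group. The mean was 2.86-fold higher in FPKM, and the log2 fold change was 1.26 ± 0.11 (SE; adjusted p = 0.00017 by limma). CLK4, the closest relative of CLK1, was at 0.278 and 0.408 FPKM in control and at 1.27 and 1.61 in KD libraries, with 0.190 to 0.295 in the 4 treated libraries. Its mean was 4.21-fold higher, with a log2 fold change of 0.86 ± 0.09 (adjusted p = 0.00027 by limma). At such low levels log2(FPKM + 1) understates a change, and a voom fit of the reads gave 2.06.

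CLK2 and CLK3 were not called higher. CLK2, at 9.35 and 9.67 FPKM in control and 8.74 and 10.1 in KD libraries, overlapped between the groups, with a log2 fold change of -0.02 and a 95% confidence interval of -0.24 to 0.21. CLK3 was at 1.61 and 1.62 FPKM in control and 1.06 and 1.21 in KD libraries, 1.43-fold lower, with a log2 fold change of -0.30 ± 0.10 (adjusted p = 0.034 by limma). The CLK3 call ended in 6 of 8 fits that left out a library, those without either library of control, KD or KD with TNF-α, with log2 fold changes of -0.35 to -0.24 and adjusted p up to 0.17. The summed FPKM of the 4 kinases was 20.1 and 20.8 in untreated KD cells against 12.9 to 15.1 in the other 6 libraries, and CLK1 made up 40.4% and 42.6% of it against 16.9% to 21.6%. The size of these shares depends on the annotated exon lengths.

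Among the SR factors, SRSF11, a factor that contacts U2AF at the 3′ splice site, was at 5.13 and 5.79 FPKM in control and 13.8 and 13.9 in KD libraries, with 5.27 to 6.47 after TNF-α. Both untreated KD libraries were more than 2-fold above each of the other 6. Its mean was 2.53-fold higher, with a log2 fold change of 1.201 ± 0.094 (adjusted p = 0.00014 by limma). SRSF5, which acts in splice site choice, was at 17.0 and 18.9 FPKM in control and 24.6 and 26.2 in KD libraries, with 17.1 to 17.7 after TNF-α. Its rise was smaller, 1.42-fold in mean FPKM with a log2 fold change of 0.48 ± 0.08 (adjusted p = 0.0014 by limma), and with upper-quartile factors it missed the threshold at 0.25 (adjusted p = 0.052). SRSF11 has no annotated retained intron on the transcript taken and no bases found only in retained-intron transcripts, and its change was close in size to that of CLK1.

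The more abundant SR factors had smaller log2 fold changes. SRSF2, a founding member of the family also known as SC35, was at 61.9 and 66.75 FPKM in control and 50.8 and 56.1 in KD libraries, a log2 fold change of -0.26 ± 0.09 (adjusted p = 0.036 by limma), and 56.1 to 62.97 after TNF-α. That call ended without control library 1 (-0.21), KD library 1 (-0.19) or either library of KD with TNF-α (-0.26) and in the fit with a replicate block (adjusted p = 0.0504), and the value was 0.01 with the libraries scaled to total reads. SRSF3, the smallest SR protein, was at 46.8 and 56.6 FPKM in control and 44.8 and 46.2 in KD libraries. Its 2 control libraries differed more than the groups did, the log2 fold change of -0.17 missed the threshold (interval -0.40 to 0.06), and without control library 2 it was called at -0.31 (adjusted p = 0.0054). SRSF6 (33.4 and 33.4 against 32.3 and 33.996 FPKM) and SRSF7 (39.9 and 43.7 against 40.2 and 42.3 FPKM) overlapped between the groups, with log2 fold changes of -0.01 (interval -0.17 to 0.15) and -0.02 (interval -0.20 to 0.16). Upper-quartile factors brought both past the threshold as lower, at -0.25 and -0.26, and scaling to total reads as higher, at 0.27 and 0.26. The summed FPKM of the 6 SR factors was 212 and 214 in untreated KD cells, within the 205 to 224 of the other 6 libraries.

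**Figure D3:**
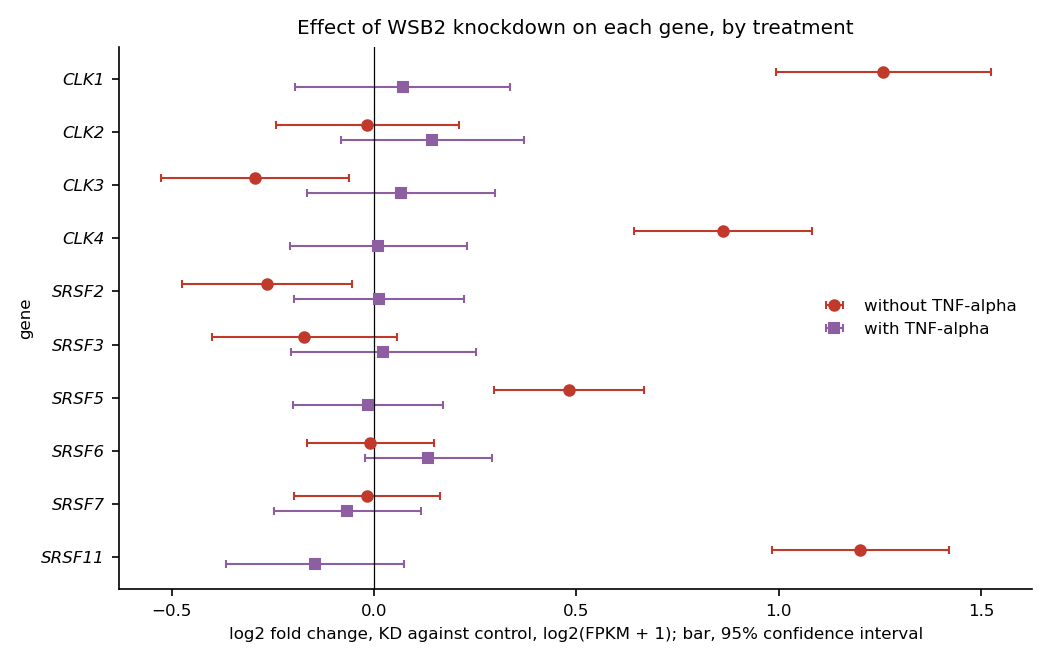
Log2 fold change of each gene in KD against control cells, on log2(FPKM + 1), without TNF-α (circles) and with TNF-α (squares); bars are 95% confidence intervals from limma. Without TNF-α the values run from -0.30 (CLK3) to 1.26 (CLK1), and with TNF-α all 10 lie between -0.15 and 0.14.

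Base composition moved with these differences. Over protein-coding genes, the median log2 fold change of KD against control without TNF-α was 0.69 for the 1977 genes with up to 40% GC in their exons, 0.35 for 2983 genes at 40 to 45%, 0.02 for 2417 at 45 to 50%, -0.26 for 2091 at 50 to 55% and -0.57 for 4024 above 55%. With TNF-α the same classes had medians of -0.01 to 0.01. The 3 members with the largest rise are also those lowest in GC, CLK4 with 37.0%, SRSF11 with 37.2% and CLK1 with 39.3%. SRSF3 with 40.03%, SRSF6 with 40.2% and SRSF7 with 41.4% lie just above them in GC but had log2 fold changes below the lower quartile, 0.09, of their class. CLK2, the member highest in GC at 55.6%, was near 0 where the upper quartile of its class was -0.23. When each library was corrected for a smooth trend on GC content and length, CLK1 kept its call at 0.67 (adjusted p = 0.0011), SRSF11 at 0.39 (adjusted p = 0.0042) and SRSF5 at 0.32 (adjusted p = 0.014), CLK4 lost it at 0.06 (adjusted p = 0.56), and CLK3 (-0.27) and SRSF2 (-0.20) missed the threshold. The same correction brought 4 other members past it, CLK2 as higher at 0.41 and SRSF3 (-0.81), SRSF6 (-0.51) and SRSF7 (-0.41) as lower. Of 16520 tested genes, that fit called 3921 higher and 4642 lower. The correction works on log2(FPKM + 1), which understates a change at the low level of CLK4, where voom without the correction gave 2.06. The lost call of CLK4 can thus not show whether it moved like other genes of its GC content. The mitochondrial share and the number of genes with a read moved with the untreated KD libraries as well, and their part in these results was not tested.

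**Figure D4:**
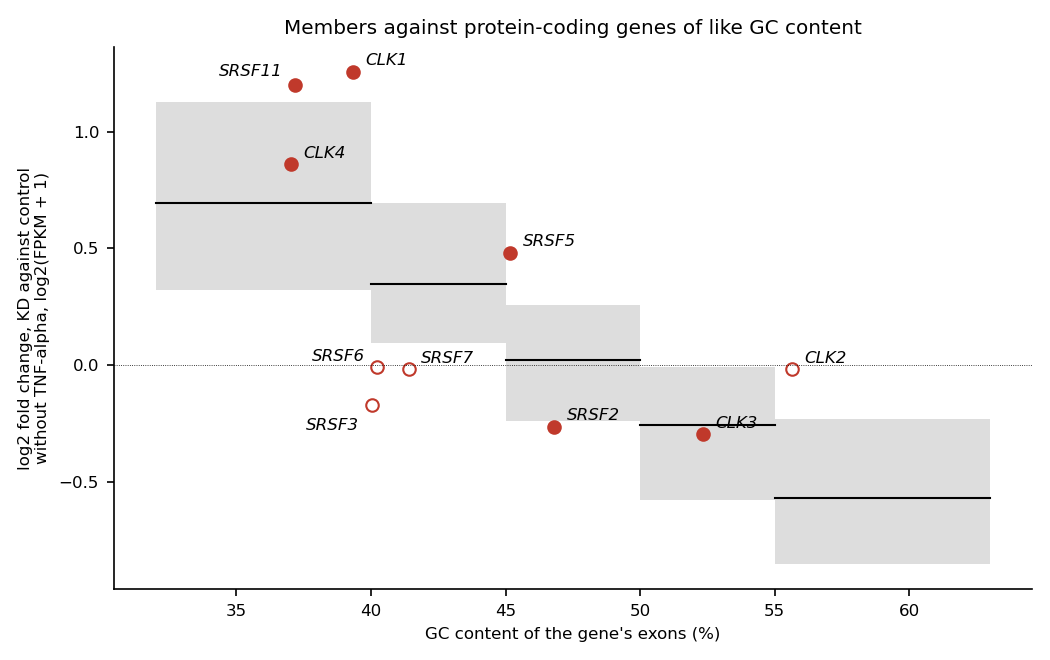
Log2 fold change of KD against control without TNF-α (log2(FPKM + 1)) against the GC content of a gene's exons. Points are the 10 genes, filled where called; lines and grey bands are the median and the quartiles of protein-coding genes in each GC class, from 0.69 up to 40% GC to -0.57 above 55%, the outer classes being cut off at the edges of the bands.

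The annotated share of retained-intron sequence did not order the genes in the same way. Over tested protein-coding genes, the median log2 fold change without TNF-α was -0.01 for 5961 genes with no base found only in retained-intron transcripts, 0.07 for 3691 genes with up to 15% of such bases, -0.12 for 1980 with 15 to 30% and -0.23 for 1868 above 30%. The median GC content of these classes was 48.2%, 47.0%, 50.4% and 50.8%. Among genes of up to 40% GC, the median was 0.62 for the 826 with no such bases and 0.69 for the 514 with more than 15%. In the other 4 GC classes the genes with more than 15% had the lower median, 0.27 against 0.34 at 40 to 45%, -0.06 against 0.03 at 45 to 50%, -0.37 against -0.24 at 50 to 55% and -0.63 against -0.54 above 55%. CLK1 and CLK4, both in the class above 30%, were thus unlike its median, and SRSF3, in the same class with 30.4%, was close to it at -0.17.

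KD against control with TNF-α addresses the effect of the knockdown in stimulated cells. By limma 0 of the 10 genes passed the test, where 0.115% of all tested genes were called in either direction. Those 19 genes became 67 higher and 31 lower without control library 1 and 0 without KD library 2 with TNF-α (791 at an unadjusted p under 0.05), and voom called 34 higher and 18 lower. None of the members had an unadjusted p under 0.05, in limma or in the voom fit. The log2 fold changes ran from -0.15 for SRSF11 (interval -0.37 to 0.07) to 0.14 for CLK2 (interval -0.08 to 0.37), with 0.07 for CLK1 (interval -0.19 to 0.34) and 0.01 for CLK4 (interval -0.21 to 0.23). For CLK1, CLK4, SRSF5 and SRSF11 the upper bounds (0.34, 0.23, 0.17 and 0.07) lie below the lower bounds of their intervals without TNF-α (0.99, 0.64, 0.30 and 0.98). For CLK3 and SRSF2 the intervals with and without TNF-α overlap. All these intervals use 1 spread per gene pooled over the 4 groups, though the groups differed in spread. The variance between libraries over sampling noise was 30.1 in control, 7.23 in KD, 4.31 in control with TNF-α and 2.45 in KD with TNF-α. A fit of only the 4 treated libraries called 24 genes higher and 15 lower, and 0 members. SRSF6 was at 36.4 FPKM in both control libraries and at 39.8 and 40.2 in the KD libraries, with a log2 fold change of 0.13 (adjusted p = 0.70 by limma). Its groups did not overlap, and neither did those of CLK2, SRSF7 and SRSF11. How often this held among all tested genes was not counted.

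In control cells, TNF-α left the family below the threshold as well. None of the 10 genes was called by limma, where 4.24% of all tested genes were called in either direction, and 0 had an unadjusted p under 0.05 in limma or voom. The 701 calls over all genes became 1431 higher and 699 lower without control library 2 and 191 higher and 38 lower without library 2 of control with TNF-α. Log2 fold changes ran from -0.20 for CLK1 (2.80 and 3.14 FPKM against 2.18 and 2.75) to 0.17 for SRSF11 (5.13 and 5.79 against 6.04 and 6.47). The groups did not overlap for CLK1 and SRSF11, nor for CLK4 and SRSF6. Without control library 2, SRSF3 was called at -0.26 (adjusted p = 0.047).

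In KD cells, TNF-α was compared with the same untreated KD libraries, so this result and the first are not independent. CLK1 fell from 8.39 and 8.58 to 2.56 and 2.70 FPKM, by 1.39 ± 0.11 on the log2 scale (adjusted p = 7.4e-05 by limma). CLK4 fell from 1.27 and 1.61 to 0.190 and 0.295 FPKM (log2 fold change -0.97), SRSF11 from 13.8 and 13.9 to 5.27 and 5.84 (-1.18) and SRSF5 from 24.6 and 26.2 to 17.1 and 17.4 (-0.53). After TNF-α the KD libraries lay within the range of the 4 control libraries for CLK1, SRSF5 and SRSF11, and 1 of them just below it for CLK4. CLK3 (1.06 and 1.21 against 1.55 and 1.75 FPKM, log2 fold change 0.31, adjusted p = 0.026) and SRSF6 (32.3 and 33.996 against 39.8 and 40.2 FPKM, 0.26, adjusted p = 0.010) passed as higher. That makes 4 of 10 called lower and 2 called higher by limma, where 31.4% of all tested genes were called lower and 31.1% higher. The CLK3 call ended without any 1 of the 4 libraries compared (0.26 to 0.37), and the SRSF6 call without KD library 1 (0.23) or either library of KD with TNF-α (0.26 and 0.27), and SRSF6 was at -0.11 with scaling to total reads. With that scaling 0 members were called higher and 6 lower, with upper-quartile factors 4 and 4, and over all tested genes the median went from -0.01 to -0.19 and 0.08 and the share of higher among the calls from 49.8% to 31.4% and 60.1%. With the correction for GC content and length, CLK1 stayed lower at -0.81 (adjusted p = 0.00042), SRSF11 at -0.42 (adjusted p = 0.0026), SRSF5 at -0.38 (adjusted p = 0.0057), and CLK4 at -0.21 was just past the threshold (adjusted p = 0.049), which it missed with the replicate block added (adjusted p = 0.056). The correction ended the CLK3 call (0.14, adjusted p = 0.29) and moved SRSF6 to 0.77. It also brought 3 members past the threshold that were not called before, SRSF3 (0.67) and SRSF7 (0.37) as higher and CLK2 (-0.32) as lower. Of 16520 tested genes, the corrected fit called 4827 higher and 4569 lower. For CLK4, whose change log2(FPKM + 1) understates, voom without the correction gave -2.59.

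The interaction of KD and TNF-α tests whether the effect of the knockdown differs between the treatments. It was called for CLK1 at -1.19 ± 0.16 (SE; adjusted p = 0.0019 by limma), CLK4 at -0.85 ± 0.13 (adjusted p = 0.0027), SRSF5 at -0.50 ± 0.11 (adjusted p = 0.0094) and SRSF11 at -1.35 ± 0.13 (adjusted p = 0.0011), on the log2 scale. All 4 were negative, which is a larger difference between KD and control without TNF-α. No member was called in the other direction in this fit, where 22.3% of all tested genes were called lower and 23.8% higher. The interaction includes the 2 untreated KD libraries, which stood apart in other measures. As in the first comparison, the design cannot tell an effect of the knockdown from a trait of those libraries. With upper-quartile factors 3 members were called higher and 3 lower, among them no longer SRSF5 (-0.26, adjusted p = 0.14), and the share of higher among all calls went from 51.7% to 64.9%, or to 32.9% with scaling to total reads. With the correction for GC content and length CLK1 (-0.60, adjusted p = 0.014) and SRSF11 (-0.53, adjusted p = 0.011) kept their calls, CLK4 (-0.04, adjusted p = 0.80) and SRSF5 (-0.34, adjusted p = 0.052) did not. With the replicate block added, SRSF5 passed again (adjusted p = 0.043). The correction also called 3 members in the other direction, SRSF3 at 0.83 (adjusted p = 0.012), SRSF6 at 0.65 (adjusted p = 0.0038) and SRSF7 at 0.34 (adjusted p = 0.040). Of 16520 tested genes, the corrected fit called 3262 higher and 2534 lower for the interaction. For CLK4 the corrected value again rests on log2(FPKM + 1), and voom without the correction gave an interaction of -2.05.

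Other genes of the same machinery were counted from lists of known members, each to be read against the 29.8% of all tested genes called higher and 30.2% called lower in KD cells without TNF-α. These shares are not matched for GC content, which had a Spearman correlation of -0.69 with the log2 fold changes of that comparison. The lists were chosen with earlier results of these data known. Of 9 genes for other SR kinases, phosphatases and an importer of SR proteins, 6 were called higher and 1 lower in KD cells without TNF-α, with a median log2 fold change of 0.39 against 0.00 over all tested genes. PRPF4B, a kinase of the spliceosome, rose from a mean of 2.81 to 10.7 FPKM (log2 fold change 1.63), SRPK1, the cytoplasmic kinase that sends SR proteins to the nucleus, by 0.88 and PPP1CB by 0.84, while PPP1CA, another catalytic subunit of protein phosphatase 1, fell by 1.19. Of 8 other SR proteins 7 were tested, and SRSF10 (1.00) and TRA2A (0.32) were called higher and SRSF9 lower (-0.74), with a median of 0.04, so neither direction was called more often than among all tested genes. The SR list turned with the scaling, with 5 higher and 1 lower for total reads (median 0.31) and 1 higher and 2 lower for upper-quartile factors (median -0.19), while the kinase list kept 8 and 4 higher and 1 lower. With TNF-α, 0 genes of either list were called between KD and control by limma or voom, and 0 had an unadjusted p under 0.05.

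The early spliceosome and the hnRNP proteins, which often oppose SR proteins, went partly the other way. Of 15 genes of U1, U2 and early spliceosome, 10 were called lower and 1 higher without TNF-α, where 30.2% and 29.8% of all tested genes were, with a median of -0.56. This count is not matched for GC content, and 69.9% of protein-coding genes above 55% GC were called lower. SF3A2, a U2 protein, fell by 1.10 on the log2 scale, SNRPC and SNRNP70, both of U1, by 0.99 and 0.98, while SF3B1, the U2 protein that holds the branch point, rose by 1.23. The 21 hnRNP genes were split, 7 higher and 10 lower against 29.8% and 30.2% of all tested genes, with the share of higher calls near that background and a median of -0.24, and the 4 with the largest change were all lower, HNRNPAB at -0.80, HNRNPL at -0.74, PTBP1 at -0.73 and HNRNPC at -0.66. Scaling to total reads turned the hnRNP list round, with 8 higher, 5 lower and a median of 0.04, while the U1 and U2 list kept a median of -0.29. With TNF-α, HNRNPR alone was called in these lists, at -0.88.

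Of 18 further genes known for retained introns, 17 were called higher in KD cells without TNF-α and 1 lower, where 29.8% and 30.2% of all tested genes were, with a median of 0.84. This list was chosen with earlier results of these data known, so its counts are a description and no independent test. NKTR rose from a mean of 0.643 to 5.53 FPKM (log2 fold change 1.99), PNISR by 1.75, LUC7L3 by 1.63 and SREK1 by 1.55. LUC7L, named because it was the exception, was called lower (-0.55). With the correction for GC content and length 12 were called higher and 1 lower, against 3921 and 4642 of 16520 tested genes, with a median of 0.40. With TNF-α, 0 of the 18 were called by limma between KD and control cells, where 1 had an unadjusted p under 0.05 (0 by voom), and their median was -0.03. In KD cells TNF-α called 15 of them lower and 1 higher, where 31.4% and 31.1% of all tested genes were, again against the same untreated KD libraries.

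**Figure D5:**
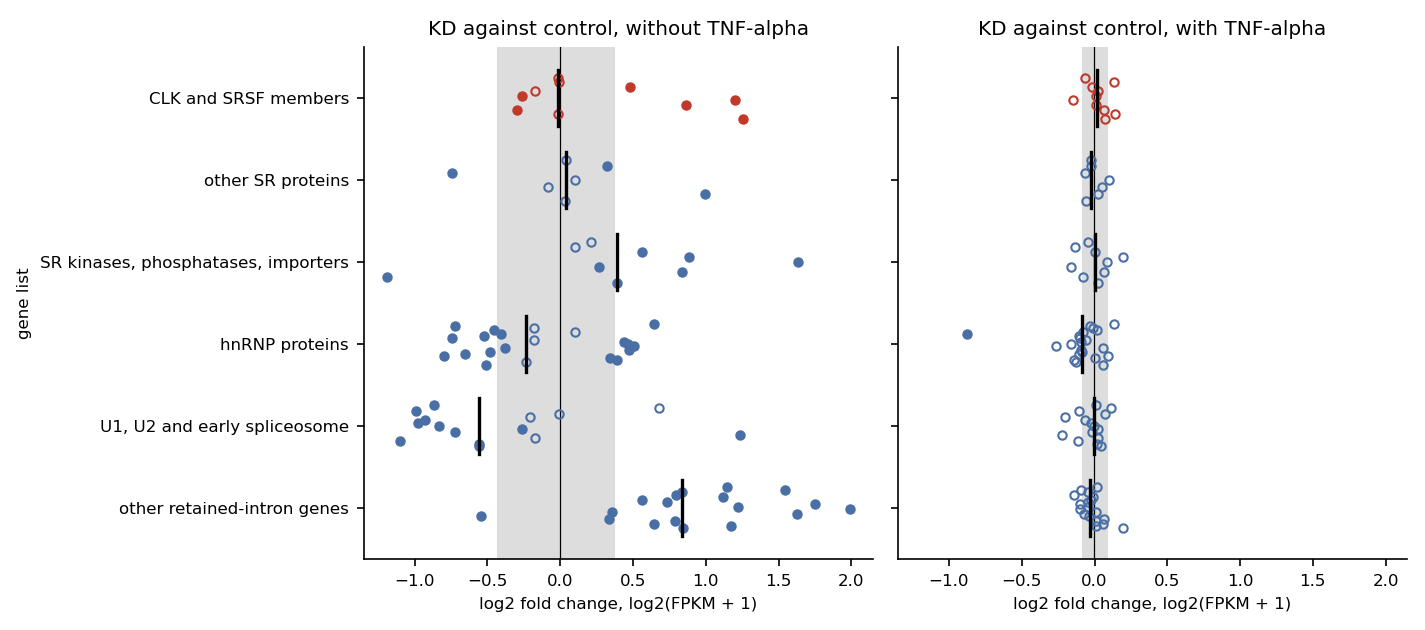
Log2 fold change (log2(FPKM + 1)) of KD against control for the 10 members and 5 lists of splicing genes, without TNF-α on the left and with TNF-α on the right. Points are genes, filled where called; thick bars are list medians, and the thin line and grey band are the median and quartiles of all 16528 tested genes. Without TNF-α the list medians run from -0.56 (U1, U2 and early spliceosome) to 0.84 (other retained-intron genes), and with TNF-α they lie between -0.08 and 0.02.

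Over the 8 libraries, the genes whose log2(FPKM + 1) was most like that of CLK1 were TMEM263 (Pearson correlation 0.998), SSR1 (0.997), PDCD10 (0.997), DENR (0.996) and EIF4A2 (0.996), out of 6601 tested genes with a mean of at least 5 FPKM. Each was highest in the 2 untreated KD libraries, TMEM263 for example at 10.1 and 10.8 FPKM against 3.66 to 4.85 in the other 6, and their exons held 38.4% to 42.1% GC. A correlation of at least 0.95 was reached by 461 of these genes, 6.98%. Among the members the values were 0.986 for CLK4, 0.968 for SRSF5 and 0.966 for SRSF11, and -0.920 for CLK3. These are descriptions over libraries that share 1 group standing apart.

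Promoters, from 250 bases before to 50 after the start that RefSeq gives for a gene, were taken from RefSeq on GRCh38.p14 and matched for 9 of the 10 members, all but SRSF2. For CLK2, CLK3, CLK4, SRSF5 and SRSF11 that start lies kilobases inside the outer bounds that GENCODE gives for the gene. The promoters are described because 4 members were called higher in KD cells without TNF-α, where 29.8% of all tested genes were. Whether these members share a regulator was not tested. The letters TGACG, the core of the site of CREB and ATF factors, were found on either strand in CLK1, CLK4, SRSF5, SRSF11 and SRSF3, 5 of 9, against 25.01% of 27305 promoters. SRSF3, which holds them, was not called in KD against control cells, and the motifs were chosen with the members' values known. The full palindrome TGACGTCA was in none of the 9, against 1.98% of all promoters. For NF-κB, only a narrow form of the site was searched, a run of fixed bases around free positions in its middle. That narrow form was in none of the 9, against 1.92% of all promoters. Looser forms of the NF-κB site were not searched, so these counts cannot show whether a member's promoter holds such a form. GGGCGG was in 6 of 9 against 44.6%, CCAAT in 2 against 35.7%, TATAAA in 2 against 11.95% and CCGGAAG in 1, SRSF5, against 10.7%. The promoters of CLK1 and SRSF11, the 2 members with the largest rise on log2(FPKM + 1), are shown (CLK4 rose more in mean FPKM), with TGACG, or the same letters on the other strand, in capitals. That of CLK1 is chr2:200864609-200864908 on the minus strand and that of SRSF11 chr1:70221130-70221429 on the plus strand.
CLK1: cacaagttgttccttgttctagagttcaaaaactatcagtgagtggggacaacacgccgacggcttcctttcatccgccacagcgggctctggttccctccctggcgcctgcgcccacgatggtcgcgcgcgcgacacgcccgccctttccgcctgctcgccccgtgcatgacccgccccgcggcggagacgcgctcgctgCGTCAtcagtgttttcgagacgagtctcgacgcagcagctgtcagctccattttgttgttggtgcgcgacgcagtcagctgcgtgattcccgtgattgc
SRSF11: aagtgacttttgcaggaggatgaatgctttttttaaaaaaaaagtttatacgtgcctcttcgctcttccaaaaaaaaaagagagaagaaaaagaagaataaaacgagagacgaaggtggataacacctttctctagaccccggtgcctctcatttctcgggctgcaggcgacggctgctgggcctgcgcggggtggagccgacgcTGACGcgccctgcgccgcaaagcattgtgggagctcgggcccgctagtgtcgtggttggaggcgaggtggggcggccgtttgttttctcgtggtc
A match of letters is a description of these windows, and no data on binding at them were measured.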

How the data were processed

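RNA-seq of U2OS cells was analysed in 4 groups of 2 libraries. The authors deposited FPKM values for 58735 genes, and per the labels the submitters' processing notes name fastp, HISAT2 2.0.5, featureCounts 1.5.0-p3 and DESeq2 1.20.0, with GRCh38 as the build. Multiplying FPKM by gene length gave steps of 1 fixed size within a library for 100% of values, from which whole reads were recovered, and the deposited scaling equalled median-of-ratios size factors.

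Log2(FPKM + 1) was fitted with limma 3.58.1 (R 4.3.3) as group means over all 8 libraries, with 4 residual degrees of freedom and a variance trend, and p-values were adjusted (Benjamini-Hochberg) over the 16528 genes that reached, in 2 libraries, the equivalent of 10 reads at median depth and had 15 reads in total. All 10 members passed this filter. The edgeR test named by the study's methods was not run, and the recovered reads were used in the voom fit. The members and gene lists were chosen with earlier results of these data known. Named are all members, genes over or copied from them, checks of the labels, up to 4 called genes with the largest change in each list, and the 5 genes most like CLK1. Annotation was GENCODE release 29 and splice sites were read from its transcripts. Alternatives were a pseudocount of 0.1, other scalings and filters, leaving out each library, a replicate block, voom and a correction for GC content and length (splines with 5 degrees of freedom). Intervals and depth cover these libraries only. Python 3.11.15 with pandas 2.3.3 and matplotlib 3.10.9 was used.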

Additional observations from a re-analysis of the deposited data

Results flagged for a closer look

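The effect of KD differed between untreated and TNF-α-treated cells for 4 members by the interaction term of the limma fit, on the log2 scale: CLK1 (-1.19), CLK4 (-0.85), SRSF5 (-0.50) and SRSF11 (-1.35). In each, both untreated KD libraries were above all other 6 libraries, and the same 2 libraries stood apart in mitochondrial share (4.10% and 4.42% against 1.11% to 2.03%) and in read-weighted GC content (49.5% and 50.0% against 52.6% to 53.3%). With the correction for GC content and length the values were -0.60, -0.04, -0.34 and -0.53. That correction works on log2(FPKM + 1), which understates changes at the low level of CLK4. Of all tested genes, 22.3% were called in the same direction. No group had enough libraries for a test of outlying ones.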

How the results depend on the processing

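The alternatives gave 428 values for named log2 fold changes, of which 353 kept their direction and side of the threshold, 39 lost the call, 15 gained one and 21 reversed. CLK1 and SRSF11 kept their 3 calls under all alternatives run. Reversed values in KD against control without TNF-α were, with scaling to total reads, CLK2 0.24, SRSF2 0.0135, SRSF3 0.10, SRSF6 0.27 and SRSF7 0.26, and with the correction for GC content and length CLK2 0.41. In KD cells with against without TNF-α they were CLK2 -0.20, SRSF2 -0.21, SRSF3 -0.30 and SRSF6 -0.11 with scaling to total reads, SRSF7 0.17 with upper-quartile factors, and CLK2 -0.32 and SRSF7 0.37 with the GC and length correction, which had the same values with the replicate block. Leaving out 1 library moved CLK2 between -0.11 and 0.0759, SRSF6 between -0.0455 and 0.0259 and SRSF7 between -0.0819 and 0.0482 in the first comparison, and the count of members called for TNF-α in control cells from 0 to 1 (0 to 1 over the 8 fits). The causes were not tested.

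Whether replicate numbers pair the libraries is not settled by the values. Deviations from the group means correlated by 0.35 between same-numbered libraries of control and KD without TNF-α. In the other pairs of groups the correlation was -0.19 to 0.02. A fit with the replicate block called 5, 0, 0, 6 and 4 members in the 5 comparisons against 6, 0, 0, 6 and 4 without it, SRSF2 being the member lost (adjusted p = 0.0504). The depth limits CLK4 most, with 26 reads in its lowest library. With 2 libraries a group, and 1 after leaving one out, the spread is borrowed from the other groups.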
